A study of Homo sapiens with 12 samples.

Results

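ESRP1 and ESRP2 encode the epithelial splicing regulatory proteins, and CD44, FGFR2, CTNND1, ENAH and RBFOX2 carry exons or starts whose use differs between epithelial and mesenchymal cells. These 7 genes, of 39099 genes in all, were chosen by symbol, and their 122 transcripts, of 153329, were followed singly, as gene sums and as shares within each gene. RNA was measured in 12 libraries from the established human pancreatic cancer cell lines ASPC1 (also written AsPC-1) and PANC1 (PANC-1). Each line was given 3 conditions, a control labelled Mock, TAp63 O/E and deltaNp63 O/E (over-expression), with 2 biological replicates in each of the 6 groups. TAp63 and deltaNp63 are the TP63 protein classes with and without the amino-terminal transactivation domain. The labels give neither how the constructs were delivered nor whether a culture was a clone, and they do not say what the replicates had in common, so p-values measure only the spread between these samples. Abundances are relative transcript levels (TPM, each library scaled to a fixed total), a unit that corrects for transcript length, so levels can be set side by side between genes.

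ESRP1 and ESRP2 are RNA-binding proteins that recognise GU-rich sequence and switch alternative exons to the epithelial pattern, generally promoting an exon when bound downstream of it and silencing an exon when bound within it or upstream of it. Their known targets include the CD44 variable exons, the mutually exclusive IIIb and IIIc exons of the fibroblast growth factor receptor FGFR2, the CTNND1 transcripts of p120-catenin, and exon 11a of ENAH, which encodes the actin regulator Mena. RBFOX2 is another splicing regulator, which binds UGCAUG elements and acts in many tissues. Epithelial cells are known for CD44 with variable exons, FGFR2 IIIb, short p120-catenin from a downstream start codon and Mena with exon 11a, and mesenchymal cells for the alternatives.

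Exons on which the isoform results turn are shown so that the sequence behind each share can be read. They are given 5′ to 3′ on the transcribed strand, from GRCh38 with the exon positions of GENCODE v44, in lower case with every GGT (GGU in the RNA, a core of the ESRP binding sequence) in capitals. Only this strand was searched. Each is an exon whose whole length is coding in at least 1 annotated transcript. The CD44 exons v8 (chr11:35208105-35208206, plus strand), v9 (chr11:35209965-35210054) and v10 (chr11:35211246-35211449) are the variable exons nearest to the constant 3′ end. Exon B of CTNND1 (chr11:57815915-57816001, plus strand) and the 40-base exon of RBFOX2 (chr22:35756105-35756144, minus strand) also had different inclusion in the 2 lines.
CD44 v8: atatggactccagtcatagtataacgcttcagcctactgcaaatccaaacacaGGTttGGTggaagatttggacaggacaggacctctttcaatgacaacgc
CD44 v9: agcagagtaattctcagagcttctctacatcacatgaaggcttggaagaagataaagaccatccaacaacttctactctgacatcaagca
CD44 v10: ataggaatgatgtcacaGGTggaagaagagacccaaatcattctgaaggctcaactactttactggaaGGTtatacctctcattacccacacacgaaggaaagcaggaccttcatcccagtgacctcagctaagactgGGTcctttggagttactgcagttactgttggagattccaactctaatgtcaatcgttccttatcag
CTNND1 exon B: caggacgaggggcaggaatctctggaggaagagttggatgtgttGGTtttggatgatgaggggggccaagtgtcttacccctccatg
RBFOX2 40-base exon: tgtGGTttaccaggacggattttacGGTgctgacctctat

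The last exon is shown because it defines the ENAH classes. ENAH exon 11a (chr1:225504991-225505053, minus strand) is 63 bases long.
ENAH exon 11a: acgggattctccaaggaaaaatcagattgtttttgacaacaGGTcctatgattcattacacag
GGT occurred 2 times in v8, 0 times in v9 and 3 times in v10, where 61.7%, 57.8% and 86.8% of annotated exons of the same length hold at least 1. It occurred once in CTNND1 exon B (57.3% of exons of that length hold it) and 2 times in the RBFOX2 exon (27.7%). ENAH exon 11a held 1 (46.5%). These matches describe the letters only.

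GENCODE genes could be assigned to 91.2% of the transcripts, which made up 89.6% to 90.5% of the TPM. From 12212 to 13161 genes were at or above 1 TPM per library, and replicates correlated across genes with Pearson's r between 0.987 and 0.994. TP63 stood at 1.10 and 0.82 TPM in ASPC1 mock and between 102 and 350 TPM under the constructs, and at 0.12 and 0.025 TPM in PANC1 mock and between 324 and 1187 TPM under the constructs. The 7 epithelial markers (keratins, EPCAM, CDH1 and claudins) were all at or above 1 TPM in every library of both lines, with a summed level of 7914 to 11390 TPM in ASPC1 and 3639 to 3997 TPM in PANC1. The 4 mesenchymal markers summed to 2015 to 2378 TPM in ASPC1 and 4336 to 4986 TPM in PANC1, nearly all of it VIM (2000 to 2361 and 4291 to 4943 TPM). Endothelial markers stayed at or below 0.278 TPM in sum, with CDH5 listed at 0 in ASPC1. The 4 leukocyte markers summed to 199 to 244 TPM in ASPC1 and 255 to 288 TPM in PANC1, which was CD68 with LYZ in ASPC1 and CD68 in PANC1, while PTPRC was at most 0.0102 TPM and CD3E at most 0.0553 TPM in any library. The 4 fibroblast markers summed to 178 to 289 TPM in ASPC1, nearly all LUM, and 80.9 to 111 TPM in PANC1, nearly all COL1A1, with COL1A2 and DCN below 1 TPM in every library. The part of these markers in the differences between lines was not tested. In bulk RNA, fewer cells of a type and less RNA per cell cannot be told apart.

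The first comparison asked how the 2 lines differ before p63 is added. ASPC1 carried abundant ESRP1 and little ESRP2, and PANC1 carried almost no ESRP1 and more ESRP2. ESRP1 was at 51.4 and 47.3 TPM in ASPC1 mock, 56.6 and 53.6 TPM under TAp63, and 47.1 and 47.7 TPM under deltaNp63. In PANC1 it was at 0.258 and 0.204 TPM in mock, 0.395 and 0.206 TPM under TAp63, and 0.178 and 0.484 TPM under deltaNp63. Every ASPC1 library lay far above every PANC1 library, and the mean over the 6 libraries of a line was 176 times as high in ASPC1. The mock groups differed by -5.35 (SE 0.13) in log2(TPM + 1), PANC1 minus ASPC1, with an adjusted p of 2.67e-10 by limma, and since 1 is added before the logarithm the difference understates that of a gene near 0. ESRP1 lies on chromosome 8 (94641074 to 94707466, plus strand).

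ESRP2 (chromosome 16, 68229033 to 68238102, minus strand) had the opposite order. It was at 6.12 and 5.49 TPM in ASPC1 mock, 3.47 and 4.93 TPM under TAp63, and 3.83 and 3.95 TPM under deltaNp63. In PANC1 it was at 14.1 and 12.3 TPM in mock, 15.4 and 16.8 TPM under TAp63, and 13.6 and 13.8 TPM under deltaNp63. No PANC1 library overlapped an ASPC1 library, and the PANC1 mean was 3.10 times as high. The mock groups differed by 1.06 (SE 0.14, adjusted p = 6.82e-05, limma). ESRP2 overlaps NFATC3 on the other strand and 3 annotated genes on its own strand. ESRP1 and CTNND1 overlap 2 annotated genes each on their own strand, and CD44 and RBFOX2 overlap 1 each. How reads were assigned in these overlaps is not given in the sources used here. The 2 ESRP genes together gave 50.9 to 60.0 TPM in ASPC1, of which ESRP2 held 5.78% to 10.6%, and 12.5 to 17.0 TPM in PANC1, of which ESRP2 held 96.6% to 98.8%. The summed level was thus lower in every PANC1 library than in every ASPC1 library.

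RBFOX2 was nearly level between the lines. It ranged from 43.5 to 48.4 TPM in ASPC1, with a median of 46.0, and from 56.1 to 59.0 TPM in PANC1, with a median of 57.8. The ranges did not overlap, but the PANC1 mean was only 1.25 times as high, and the mock difference of 0.31 (SE 0.08, adjusted p = 0.00655) was near the median of all tested genes, 0.24. With each library centred on its median the RBFOX2 difference was 0.14 and the adjusted p 0.145, so its call was lost under that scaling.

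**Figure D1:**
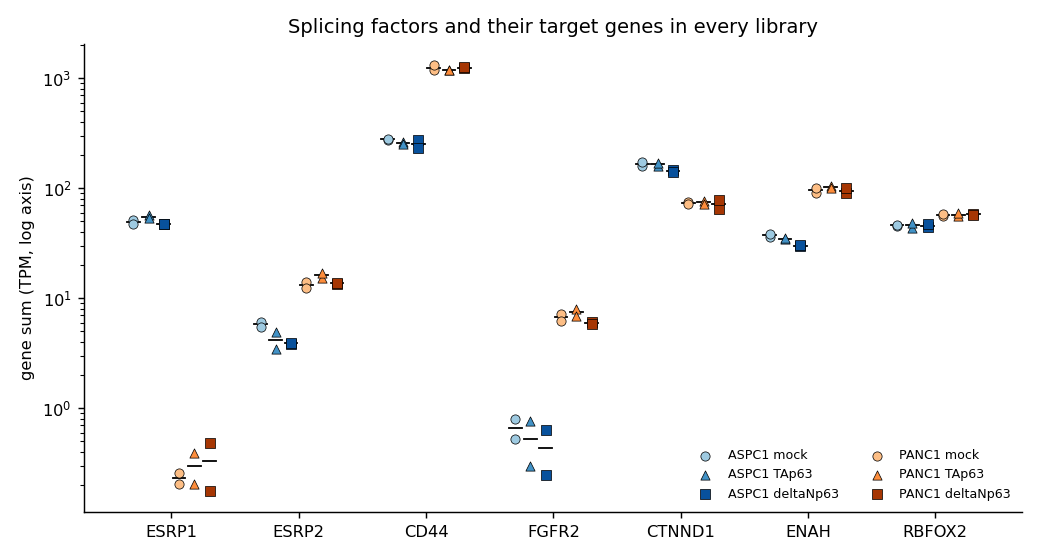
Gene sums in TPM on a log axis for the 7 genes, one point per library, coloured by cell line and condition. ESRP1 separates the lines, at 47.1 TPM or more in ASPC1 and 0.484 TPM or less in PANC1, whereas RBFOX2 lies between 43.5 and 59.0 TPM in all libraries.

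All 5 target genes were expressed in PANC1. CD44, FGFR2 and ENAH were higher there than in ASPC1, RBFOX2 only slightly so, and CTNND1 was lower. CD44, the hyaluronan receptor (chromosome 11, 35138882 to 35232402, plus strand), ranged from 233 to 282 TPM in ASPC1, with a median of 270 TPM, and from 1179 to 1310 TPM in PANC1, with a median of 1214 TPM. Its mean was 4.64 times as high in PANC1, and the mock difference was 2.16 (SE 0.08, adjusted p = 6.44e-09). FGFR2 (chromosome 10, 121478332 to 121598458, minus strand) was barely detected in ASPC1, at 0.248 to 0.801 TPM, against 5.78 to 8.04 TPM in PANC1, with a mock difference of 2.22 (SE 0.19, adjusted p = 2.38e-06). The ASPC1 and PANC1 libraries of these 2 genes did not overlap.

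ENAH (chromosome 1, 225486765 to 225653142, minus strand) ranged from 29.7 to 38.4 TPM in ASPC1 and from 90.2 to 105 TPM in PANC1. Its mock difference was 1.34 (SE 0.09, adjusted p = 3.76e-07). CTNND1 (chromosome 11, 57753243 to 57819546, plus strand) ran the other way, from 139 to 175 TPM in ASPC1 and from 64.9 to 78.4 TPM in PANC1, with a mock difference of -1.18 (SE 0.10, adjusted p = 2.25e-06). p120-catenin binds cadherins at the membrane and keeps them there. In total 7 of the 7 genes were called between the mock groups, 5 higher and 2 lower in PANC1, in a comparison where 72.5% of the 14767 tested genes were called (44.6% higher and 27.9% lower). A call alone therefore says little here, and the sizes carry the description. The split of all calls depended on scaling, with 61.5% of them higher in PANC1 on the values as deposited, 53.9% after quantile normalization and 53.2% after median centring, and the median of all genes moved from 0.24 to 0.08 and 0.07.

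The differences between the lines had the same sign within the other conditions, which have their own libraries. ESRP1 differed by -5.43 under TAp63 and -5.19 under deltaNp63, and CD44 by 2.19 and 2.29. CTNND1 differed by -1.13 and -0.99, and ENAH by 1.54 and 1.63. ESRP2 differed by 1.73 and 1.58, FGFR2 by 2.49 and 2.29, and RBFOX2 by 0.32 and 0.34.

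Single transcripts showed which forms made up these sums. Of the 122 member transcripts 65 passed the filter on low values, and 39 of them were called between the mock groups, 24 higher and 15 lower in PANC1, against 44.7% of all 51675 transcripts tested (26.1% higher and 18.6% lower). For ESRP1, 5 of 6 tested transcripts were lower in PANC1. ESRP1-203 ranged from 16.1 to 21.2 TPM in ASPC1 and differed by -4.08 (adjusted p = 3.25e-07), and ESRP1-204 and ESRP1-206 had ASPC1 medians of 11.2 and 11.4 TPM. ESRP1-201, which held at most 7.16% of the gene in a group mean of ASPC1, differed by -0.47 (adjusted p = 0.295). For ESRP2, ESRP2-202 had medians of 1.96 TPM in ASPC1 and 5.58 TPM in PANC1 and differed by 1.04 (adjusted p = 0.00636). ESRP2-210 differed by 1.03 (adjusted p = 0.0275), a call lost in 7 of 18 other settings, up to an adjusted p of 0.26. ESRP2-211, annotated as a target of nonsense-mediated decay, differed by 0.44 (adjusted p = 0.151). No ESRP2 share passed the test.

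Shares of a transcript within its gene were tested as log odds, and 21 of the 57 member shares that could be tested were called between the mock groups, 7 higher and 14 lower in PANC1, against 11.3% of all 40875 shares (5.9% higher and 5.36% lower). CD44 held 15 of the 21 (29 shares tested), CTNND1 5 (13 tested) and RBFOX2 1 (5 tested), and the 6 ENAH and 4 ESRP2 shares held 0. That count depended on the setting: it was 12 on an arcsine scale, 13 with the replicate number as a block, 13 without ASPC1 mock replicate 2 and 12 without PANC1 mock replicate 1, and all of those calls were among the 21.

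CD44 held most of these calls, and also 29 of the 57 shares tested, which depend on each other within a gene. The constant exons of CD44 can be joined directly, which gives the standard form, or can hold any of the variable exons v2 to v10, which lengthen the stem of the receptor outside the cell. Transcripts with at least 1 variable exon held 75.0% and 75.4% of the classified CD44 TPM in ASPC1 mock, 78.2% and 78.3% under TAp63, and 79.5% and 77.3% under deltaNp63. In PANC1 they held 28.8% and 36.6% in mock, 31.8% and 35.1% under TAp63, and 37.1% and 32.6% under deltaNp63. All ASPC1 libraries lay above all PANC1 libraries, with medians of 77.7% and 33.9%. The log2 odds of the standard class differed by 2.64 (SE 0.26, adjusted p = 0.000658 by limma), a call held in 16 of 16 other settings. Those that leave out a p63 library cannot change this difference, only the pooled spread. With only full-length coding transcripts in the sums, an alternative chosen after seeing the data, the variable class held 69.1% to 76.5% in ASPC1 and 24.5% to 29.9% in PANC1.

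Among single CD44 transcripts the v8 to v10 form was the leading one in ASPC1. CD44-209, whose variable exons are v8, v9 and v10, was at 96.4 and 91.8 TPM in ASPC1 mock, 91.2 and 86.1 TPM under TAp63, and 93.6 and 80.4 TPM under deltaNp63. In PANC1 it was at 41.4 and 50.3 TPM in mock, 33.7 and 33.5 TPM under TAp63, and 37.4 and 60.6 TPM under deltaNp63. The TPM of CD44-209 itself was thus lower in PANC1 (-1.03, adjusted p = 0.00303 by limma), although the gene as a whole was higher there. Its share of the gene was 32.6% to 35.1% in ASPC1 and 2.83% to 4.85% in PANC1 (difference in log2 odds -3.74, adjusted p = 0.000174). CD44-206, which holds v3 to v10 and was singled out after its values were seen, ranged from 22.1 to 26.1 TPM in ASPC1 and from 5.48 to 9.15 TPM in PANC1. CD44-210, a coding form with v10 and also singled out afterwards, went the other way. It ranged from 3.67 to 7.64 TPM in ASPC1 and from 92.4 to 116 TPM in PANC1. Of 29 CD44 transcripts tested, 12 were called higher and 3 lower in PANC1 (26.1% and 18.6% of all transcripts). The summed level of the variable class was higher in PANC1, at 335 to 470 TPM against 178 to 215 TPM in ASPC1.

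The 2 leading CD44 transcripts of PANC1 lack variable exons. CD44-201, the standard coding form, ranged from 37.6 to 56.9 TPM in ASPC1 and from 384 to 500 TPM in PANC1, and its share was 14.4% to 20.7% in ASPC1 and 31.1% to 42.1% in PANC1. The level differed by 3.17 (adjusted p = 2.07e-07) and the share by 1.43 log2 odds (adjusted p = 0.0134), the latter lost in 3 of 16 other settings, up to an adjusted p of 0.0886. CD44-207, annotated as a target of nonsense-mediated decay and without variable exons, ranged from 5.21 to 13.8 TPM in ASPC1 and from 295 to 331 TPM in PANC1. Its share was 1.97% to 5.01% in ASPC1 and 23.1% to 26.8% in PANC1 (difference in log2 odds 3.22, adjusted p = 0.00221). CD44-227, a short transcript with no defined coding sequence that overlaps v8 and v9 in part, ranged from 10.5 to 19.8 TPM in ASPC1 and from 57.7 to 159 TPM in PANC1, and its share did not pass the test (0.40, adjusted p = 0.617). It counts toward the variable class.

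**Figure D2:**
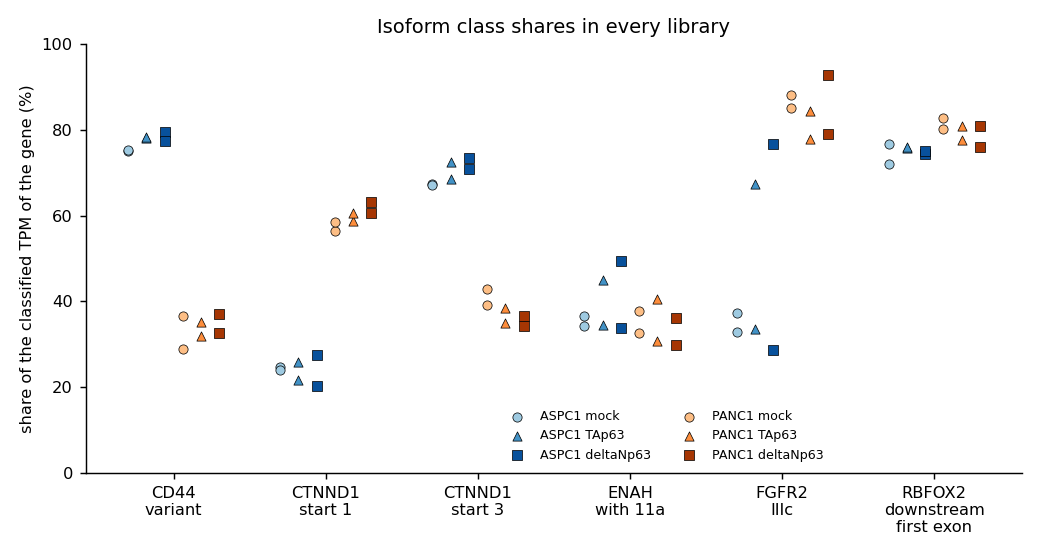
Share of each isoform class in the classified TPM of its gene, in percent, one point per library, coloured by cell line and condition. The CD44 variable class separates the lines (75.0% or more in ASPC1, 37.1% or less in PANC1), as does CTNND1 start 1 (27.5% or less against 56.3% or more), while ENAH with exon 11a overlaps.

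Inclusion of single exons was described by setting the TPM of transcripts with the whole exon against those with or skipping it. This measure was added after the values were seen and has no test. For v8 it ranged from 67.6% to 71.2% in ASPC1, with a median of 70.2%, and from 9.90% to 12.7% in PANC1, with a median of 10.8%. For v9 it ranged from 67.3% to 70.7% in ASPC1 and from 6.74% to 9.33% in PANC1, and for v10 from 62.6% to 67.4% and from 14.5% to 17.9%. The earlier variable exons were used less in ASPC1 too: v3 had 16.1% to 18.1%, v6 16.2% to 18.2% and v7 16.5% to 18.9%, against at most 4.68% for any of these 3 in PANC1. Exons v4 and v5 had at most 12.6% in ASPC1 and 1.69% in PANC1, and v2 at most 2.06% and 0.171%. The 3 exons nearest the 3′ constant block thus formed a separate level from the others in every ASPC1 library.

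**Figure D3:**
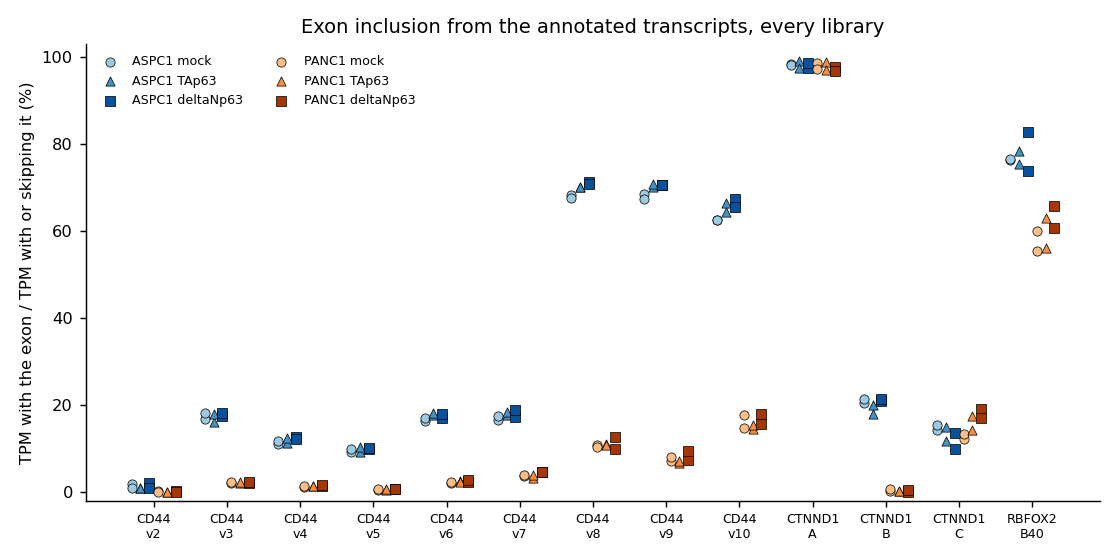
Inclusion of each exon in percent, as the TPM of annotated transcripts with the exon over the TPM of those with or skipping it, one point per library, coloured by cell line and condition. CD44 v8, v9 and v10 lie between 62.6% and 71.2% in ASPC1 and between 6.74% and 17.9% in PANC1, and CTNND1 exon B lies between 17.9% and 21.5% in ASPC1 and at or below 0.678% in PANC1.

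CTNND1 differed in its start codon. Its transcripts carry start codons at positions 57791479 (start 1, the long isoform 1), 57791641 (start 2) and 57795613 (start 3, the short isoform 3) of chromosome 11, with starts 4 and 5 further downstream. Start 1 held 24.6% and 23.9% of the classified TPM in ASPC1 mock, 21.7% and 25.8% under TAp63, and 20.4% and 27.5% under deltaNp63. In PANC1 it held 56.3% and 58.5% in mock, 58.7% and 60.5% under TAp63, and 63.2% and 60.7% under deltaNp63. Start 3 held the larger share in every ASPC1 library, 67.2% to 73.4%, and the smaller in every PANC1 library, 34.3% to 42.9%. The log2 odds of start 1 differed by 2.05 (SE 0.26, adjusted p = 0.00238 by limma) and those of start 3 by -1.56 (SE 0.24, adjusted p = 0.00482). Both calls held in 16 of 16 other settings, of which those without a p63 library could change only the pooled spread. Start 2 held at most 8.46% in any library and differed by -2.08 (SE 0.59, adjusted p = 0.0558), with an adjusted p of 0.0181 without either ASPC1 deltaNp63 replicate.

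The CTNND1 form with the smallest adjusted p was CTNND1-224. This transcript, which begins at start 3 and holds exons A and B, was at 29.7 and 33.8 TPM in ASPC1 mock, 30.2 and 26.3 TPM under TAp63, and 27.6 and 27.9 TPM under deltaNp63. In PANC1 it was at 0.131 and 0.236 TPM in mock, 0.115 and 0.219 TPM under TAp63, and listed at 0 and at 0.331 TPM under deltaNp63. The mock groups differed by -4.79 (adjusted p = 1.26e-07), and the share by -4.68 log2 odds (adjusted p = 5.91e-05). The other main start 3 transcript, CTNND1-222, which holds exon A without B, had medians of 58.0 TPM in ASPC1 and 21.3 TPM in PANC1 and differed by -1.35 (adjusted p = 0.000204). Its share of the gene differed by -0.28 log2 odds (adjusted p = 0.51), which did not pass. That share was 32.3% to 40.5% in ASPC1 and 25.8% to 31.4% in PANC1. Shares within start 3 alone were not computed.

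Of the 13 CTNND1 transcripts tested, 2 were called higher and 7 lower in PANC1 (26.1% and 18.6% of all transcripts). The 2 higher ones and 1 of the lower ones begin at start 1, and the other start 1 transcripts tested did not pass. CTNND1-201 (start 1, exon A) ranged from 7.57 to 13.8 TPM in ASPC1 and from 16.2 to 20.7 TPM in PANC1, and its share differed by 2.16 log2 odds (adjusted p = 0.00189). CTNND1-208 (start 1, exon A) had medians of 5.81 and 13.7 TPM, with a share difference of 2.73 (adjusted p = 0.00995), lost in 4 of 16 other settings, up to an adjusted p of 0.0689. The levels differed by 0.64 (adjusted p = 0.0374) and 1.22 (adjusted p = 0.0272) and were lost in 10 and 5 of 19 other settings, up to adjusted p values of 0.182 and 0.162. CTNND1-221 (start 1, exons A and C) was lower in PANC1, with a difference of -1.48 (adjusted p = 0.000388). Exon A inclusion was at least 96.9% in every library, and exon C inclusion ranged from 9.87% to 15.4% in ASPC1 and from 12.2% to 19.2% in PANC1, with overlap.

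FGFR2 could be described in PANC1 and hardly in ASPC1. The IIIc class held 88.1% and 85.1% of the classified TPM in PANC1 mock, 77.8% and 84.5% under TAp63, and 79.0% and 92.7% under deltaNp63. In ASPC1 it held 32.9% and 37.3% in mock, 67.3% and 33.5% under TAp63, and 76.6% and 28.7% under deltaNp63, in a gene with less than 1 TPM in each of those libraries. The replicates of the ASPC1 p63 groups therefore lay far apart, and the gene was below the level at which shares were tested. IIIc was the larger class in 6 of 6 PANC1 libraries. FGFR2-206 (IIIc) ranged from 2.00 to 3.62 TPM in PANC1 and from 0 to 0.238 TPM in ASPC1, with a mock difference of 1.74 (adjusted p = 0.000192). FGFR2-202 (IIIc) had medians of 1.61 TPM in PANC1 and 0 in ASPC1 and differed by 1.38 (adjusted p = 0.00578). Its ranges overlapped, at 0 to 2.10 TPM in PANC1 and 0 to 0.0155 TPM in ASPC1. These 2 were the only ones of 18 FGFR2 transcripts tested, and they reached the 1 TPM filter only through PANC1. No IIIb transcript was tested, so the calls do not compare the classes. The summed IIIb level was 0.753 TPM in PANC1 mock and 0.336 TPM in ASPC1 mock, and that of IIIc was 4.90 and 0.186 TPM. Transcripts in neither class held 0% to 29.5% of FGFR2 TPM in PANC1 and 0% to 23.3% in ASPC1.

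ENAH did not show the pattern of CD44 and CTNND1. Transcripts with exon 11a held 36.7% and 34.2% of the classified TPM in ASPC1 mock and 37.7% and 32.5% in PANC1 mock. Over all conditions the shares ranged from 33.8% to 49.3% in ASPC1 and from 29.8% to 40.6% in PANC1, with medians of 35.6% and 34.4%. The difference in log2 odds between the mock groups was -0.05 (SE 0.38, adjusted p = 0.952), an error that leaves room for a difference in either direction. Between 27.1% and 47.3% of ENAH TPM in ASPC1 and between 30.7% and 35.3% in PANC1 belonged to transcripts that hold neither exon arrangement. With full-length coding transcripts only, the share was 17.5% to 27.8% in ASPC1 and 16.7% to 24.4% in PANC1. ENAH-203 (without 11a) and ENAH-204 (with 11a) were both higher in PANC1, by 1.55 (adjusted p = 5.11e-05) and 1.58 (adjusted p = 0.00083).

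RBFOX2 transcripts fall into an upstream and a downstream first exon. The downstream class held 72.0% to 76.6% in ASPC1 and 75.9% to 82.9% in PANC1, ranges that overlapped, and the mock groups differed by 0.60 log2 odds (SE 0.26, adjusted p = 0.179). RBFOX2-205, which lacks the 40-base exon, ranged from 6.29 to 10.4 TPM in ASPC1 and from 18.9 to 23.6 TPM in PANC1 and differed by 1.14 (adjusted p = 0.000169). Its share differed by 1.25 log2 odds (adjusted p = 0.0194), lost in 5 of 16 other settings, up to an adjusted p of 0.113. RBFOX2-208, RBFOX2-209 and RBFOX2-210, which hold the exon, did not pass in level or share. Inclusion of the exon was 73.9% to 82.8% in ASPC1 and 55.3% to 65.8% in PANC1. These RBFOX2 classes and inclusion values were computed without the representative GENCODE transcript, which gives the printed exon and whose level was not analysed here.

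**Figure D4:**
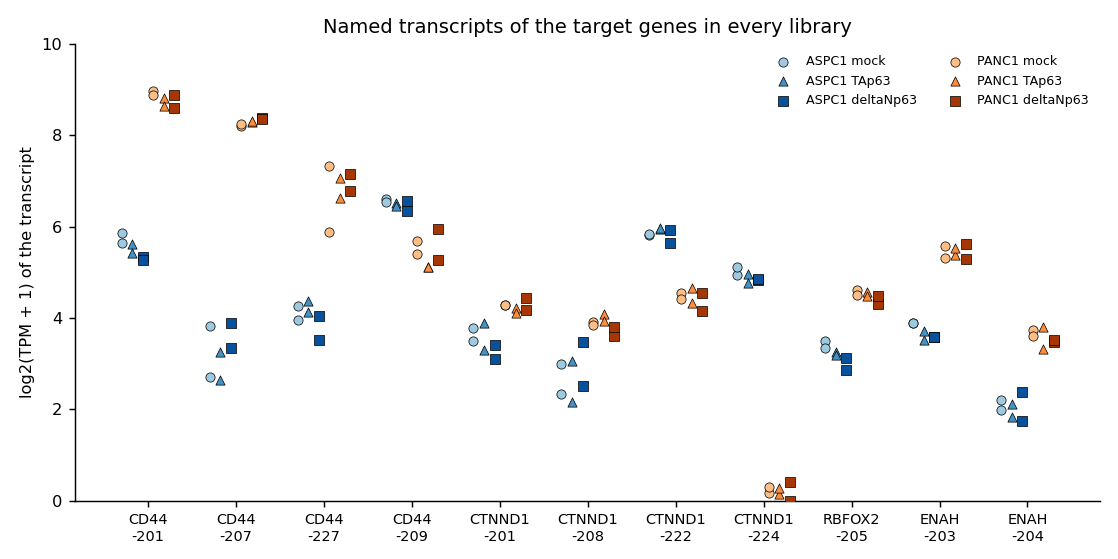
Named transcripts of the target genes as log2(TPM + 1), one point per library, coloured by cell line and condition. CTNND1-224 is near 0 in PANC1 and at 26.3 TPM or more in ASPC1, and CD44-207 is at 295 TPM or more in PANC1 and 13.8 TPM or less in ASPC1.

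The next comparisons asked whether either p63 class altered these genes. No gene sum of the 7 passed in any comparison within a line. For TAp63 against mock, 0 of 7 were called in ASPC1 (0.637% of all genes) and 0 of 7 in PANC1 (0.00677%). For deltaNp63 against mock, 0 of 7 were called in ASPC1 (7.14%) and 0 of 7 in PANC1 (0.0406%). For TAp63 against deltaNp63, 0 of 7 were called in ASPC1 (0.0203%) and 0 of 7 in PANC1 (0.0271%), and the difference between the lines in the effect of TAp63 (0.0745%) or deltaNp63 (0.582%) gave 0 of 7 as well. At an unadjusted p under 0.05 by limma there were 1 in ASPC1 TAp63 (15.1% of all genes), 2 in ASPC1 deltaNp63 (29.7%), 0 in ASPC1 TAp63 against deltaNp63 (7.92%), 0 in each PANC1 comparison (2.34% to 3.41%), and 1 and 2 in the differences between lines (10.4% and 16.5%). Ordered by level, the 6 groups of each gene split by cell line with no mixing, and neighbouring groups within a line did not differ by this test. How many of all genes split in this way was not counted, and 72.5% of them were called between the mock groups. Comparisons within a line share their mock libraries.

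ESRP2 and ENAH in ASPC1 deltaNp63 came nearest to the threshold. The 4 ESRP2 values under p63 in ASPC1, at 3.47 to 4.93 TPM, all lay below the mock libraries at 5.49 and 6.12 TPM. The difference from mock was -0.40 (95% interval -0.72 to -0.08, adjusted p = 0.229) under TAp63 and -0.47 (-0.79 to -0.16, adjusted p = 0.0664) under deltaNp63. With only genes averaging 5 TPM or more over the 12 libraries fitted, the deltaNp63 difference stayed at -0.47 and passed (adjusted p = 0.0498 by limma). ESRP2 averaged 4.63 TPM in ASPC1 and 14.35 TPM in PANC1, so it met that filter through PANC1. Only the genes sharing the adjustment and the spread estimate changed. Without ASPC1 TAp63 replicate 1 or replicate 2 the difference was also -0.47. It was -0.24 (adjusted p = 0.314 by limma) after quantile normalization and -0.27 (adjusted p = 0.244) after median centring. In PANC1 the differences were 0.27 (-0.05 to 0.59, adjusted p = 1) under TAp63 and 0.05 (-0.27 to 0.36, adjusted p = 1) under deltaNp63. The difference between the lines was 0.67 (adjusted p = 0.37) for TAp63 and 0.52 (adjusted p = 0.257) for deltaNp63.

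ENAH in ASPC1 was at 36.0 and 38.4 TPM in mock, 34.2 and 35.0 TPM under TAp63, and 29.7 and 30.4 TPM under deltaNp63. The deltaNp63 libraries lay below the others, with a difference from mock of -0.30 (-0.50 to -0.10, adjusted p = 0.0649). It was -0.15 (adjusted p = 0.339) after quantile normalization and -0.09 (adjusted p = 0.496) after median centring. CTNND1 was at 158 and 175 TPM in ASPC1 mock and 147 and 139 TPM under deltaNp63, a difference of -0.22 (-0.44 to 0.01, adjusted p = 0.178), or -0.15 and -0.01 after the same scalings. The median of all genes in this comparison was -0.12, and that of the 7 genes was -0.22. Median centring moved these to 0.09 and -0.01, and the share of all calls that were higher moved from 8.91% to 59.4%, or to 25.6% after quantile normalization.

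ESRP1 differed from mock by 0.16 (-0.14 to 0.45) under TAp63 and -0.06 (-0.35 to 0.24) under deltaNp63 in ASPC1, and by 0.08 (-0.22 to 0.37) and 0.10 (-0.19 to 0.40) in PANC1. CD44 differed by -0.10 (-0.29 to 0.08) and -0.13 (-0.32 to 0.06) in ASPC1, and by -0.07 (-0.26 to 0.11) and -0.0034 (-0.19 to 0.19) in PANC1. In ASPC1, median centring turned the sign of ESRP1 under deltaNp63 (0.15; 0.07 after quantile normalization) and of CD44 under TAp63 (0.03) and deltaNp63 (0.07), so these values give no direction. RBFOX2 differed by at most 0.02 in either direction from mock, with intervals within -0.19 to 0.20, and after median centring it was 0.13 above mock in ASPC1 TAp63 (adjusted p = 0.524) and 0.20 above mock in ASPC1 deltaNp63 (adjusted p = 0.16). FGFR2 had the widest intervals, from -0.64 to 0.20 for deltaNp63 in ASPC1.

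**Figure D5:**
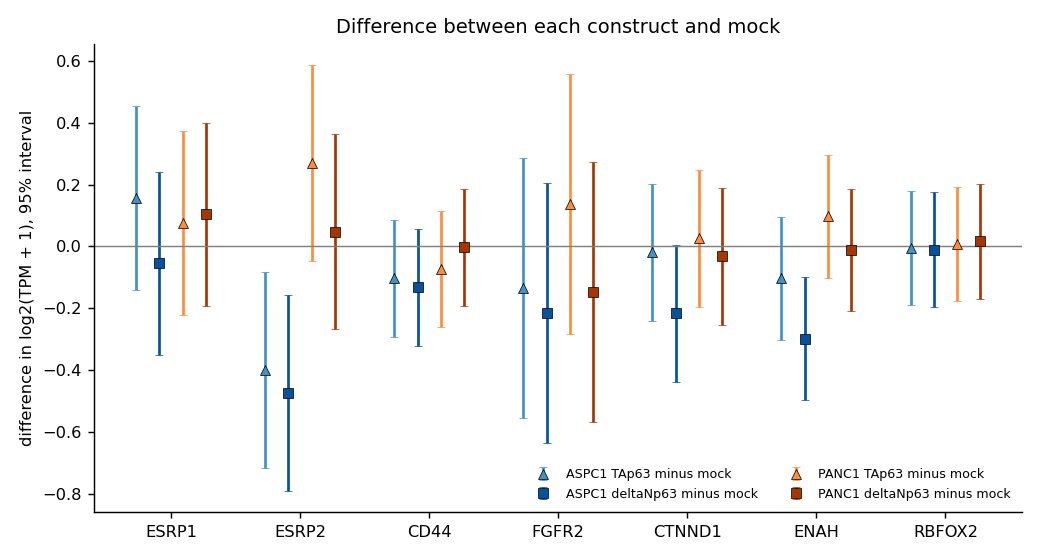
Difference from mock in log2(TPM + 1) for each gene, construct and cell line, with 95% intervals from the limma fit of the 12 libraries. The intervals cover 0 except for ESRP2 under both constructs and ENAH under deltaNp63 in ASPC1, which lie below it and do not pass the adjusted threshold.

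Single transcripts and isoform shares did not pass either. Of the 65 tested member transcripts 0 were called in ASPC1 TAp63 (0.0968% of all transcripts), ASPC1 deltaNp63 (0.298%), PANC1 TAp63 (0.0135%) and PANC1 deltaNp63 (0.0194%). The count was also 0 for TAp63 against deltaNp63 in ASPC1 (0.0116%) and PANC1 (0.0213%) and for the differences between lines (0% and 0.0735%). Of the 57 shares 0 were called in each of these 8 comparisons, in which 0% of all shares were called except for 0.00734% in PANC1 deltaNp63 and 0.0122% in PANC1 TAp63 against deltaNp63. At an unadjusted p under 0.05 by limma there were 1 to 7 of the 65 transcripts in each of these comparisons (4.36% to 13.6% of all transcripts). Of the 57 shares there were 2 to 5 (4.29% to 6.86% of all shares). The class with the lowest adjusted p was CTNND1 start 2 in ASPC1 deltaNp63 (-1.49, SE 0.59, adjusted p = 0.702). For the CD44 standard class the differences from mock in ASPC1 were -0.24 (SE 0.26) under TAp63 and -0.26 (SE 0.26) under deltaNp63, against 2.64 between the lines.

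Among 28 other splicing regulators 23 could be tested, and 14 were called between the mock groups, 9 higher and 5 lower in PANC1, where 72.5% of all genes were called, with a median difference of 0.02 against 0.24 for all genes. After median centring 5 were higher and 6 lower, and after quantile normalization 9 and 6. RBM47, an RNA-binding protein of epithelia, was at 41.0 ± 0.59 TPM (SD, n = 2) in ASPC1 mock and 0.443 ± 0.11 TPM (SD, n = 2) in PANC1 mock, a difference of -4.87 (SE 0.13, adjusted p by limma 4.74e-10). MBNL3, of the muscleblind family, was lower in PANC1 (-2.87), and KHDRBS3 (3.19) and RBM24 (2.82) were higher. In ASPC1 deltaNp63, RBM38 fell by 1.12 on the log2 scale (adjusted p = 0.0361 by limma), from 13.8 to 6.07 TPM in the means, and SNRPA, a subunit of the U1 snRNP, fell by 0.40 (adjusted p = 0.0295). RBM38 was lost in 13 of 20 other settings, up to an adjusted p of 0.248, and SNRPA in 10, up to 0.235.

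Of 15 other genes known to carry ESRP-regulated exons 9 were called between the mock groups (72.5% of all genes), 3 higher and 6 lower, with a median of -0.15, and after either scaling 3 were higher and 8 lower. RALGPS2 was at 52.1 TPM in ASPC1 mock and 0.741 TPM in PANC1 mock (-4.94, adjusted p = 7.61e-08). The receptor FGFR1 was lower in PANC1 (-1.45), and EXOC7 of the exocyst (1.47) and the kinase gene MAP3K7 (1.32) were higher. KIF13A, a kinesin, fell by 0.52 in ASPC1 deltaNp63 (adjusted p = 0.0378), lost in 11 of 20 other settings, up to an adjusted p of 0.243.

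Of 12 transcription factors known to act on ESRP1 or ESRP2, or in the same programme, 10 could be tested and 8 were called (72.5% of all genes), 4 higher and 4 lower in PANC1, with 3 higher and 4 lower after either scaling. The epithelial factor ELF3 was at 489 TPM in ASPC1 mock and 1.13 TPM in PANC1 mock (-7.85), and KLF4 at 150 and 15.5 TPM (-3.20). The repressors SNAI2 and SNAI1 ran in opposite directions: SNAI2 was at 244 and 0.719 TPM (-7.14) and SNAI1 at 0.728 and 11.6 TPM (2.88). In ASPC1 deltaNp63 SNAI2 rose by 0.75 (SE 0.19, adjusted p = 0.0495), from a mean of 244 to 414 TPM, lost in 17 of 20 other settings, up to an adjusted p of 0.264. After quantile normalization none of the 4 genes named in ASPC1 deltaNp63 passed.

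Of 15 partners and relatives of the target proteins 12 could be tested and 11 were called (72.5% of all genes), 6 higher and 5 lower, with 5 of each after either scaling. Among the cadherins that p120-catenin binds, CDH1 was at 91.6 TPM in ASPC1 mock and 2.97 TPM in PANC1 mock (-4.55), CDH2 at 0.0109 and 21.5 TPM (4.47), and CDH3 at 9.54 and 0.403 TPM (-2.91). EVL, a relative of Mena, was at 0.0377 and 20.0 TPM (4.34). None of the 12 was called under either construct. No gene of the 4 lists was called in a construct comparison other than ASPC1 deltaNp63 against mock.

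Likeness to ESRP1 and to ESRP2 was measured over the 12 libraries as the Euclidean distance between centred log2(TPM + 1) values. The genes nearest to ESRP1 were TMEM139 (distance 0.37), STEAP2 (0.46), the desmosomal cadherin DSG3 (0.51), the unnamed ENSG00000259048 (0.54) and the sterol transporter ABCG1 (0.54). DSG3 had mean levels of 34.2 TPM in ASPC1 and 0.0106 TPM in PANC1. Nearest to ESRP2 were NLGN2 (0.31), B3GALT6 (0.32), TPD52 (0.36), HOXB3 (0.36) and the unnamed ENSG00000170846 (0.36).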

How the data were processed

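RNA of 12 cell line libraries was sequenced from a stranded mRNA kit, per the labels' protocols. The authors deposited TPM values per transcript; each of the 12 columns sums to 1000000. The quantifier, genome build and annotation are not given in the sources used here. TPM keeps no read depth, so depth is unknown, no counting error can be given, and precision comes from the 2 replicates of a group.

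Transcript identifiers were joined to GENCODE v44 (GRCh38) with Python 3.11.15, pandas 2.3.3 and biopython 1.88, and summed per gene. Values were tested as log2(TPM + 1) with limma 3.58.1 (trended eBayes, R 4.3.3, with the data.table package at version 1.17.8), with 6 group means, 9 contrasts and 6 residual degrees of freedom, on the 14767 genes and 51675 transcripts that reached 1 TPM in 2 or more of the 12 libraries. Shares were tested as log2 odds with 0.5 TPM added to each side, without trend, where the gene averaged at least 1 TPM in each of the 6 groups. P-values are two-sided and adjusted by the Benjamini-Hochberg method over all rows of a contrast (threshold 0.05). The fits were also run on simulated data with independent noise, changed rows in a single comparison and another filter for the shares. The outcome of that run is not reported here. Isoform classes came from annotated exons, start codons and biotypes. The named transcripts hold at least 10% of their gene in the mean of a group. List genes named passed under a construct or were among up to 4 with the largest line difference, and for likeness the 5 nearest genes are named. The members and lists were chosen with earlier results of these data known. Alternatives covered pseudocounts, filters, scaling, moderation, the libraries fitted, a replicate block and leaving out each replicate. Leaving out a library of a group outside a comparison does not alter its difference, only the pooled spread, so such settings are a weak check. A sequence of a further exon is not reported here.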

Additional observations from a re-analysis of the deposited data

How the results depend on the processing

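Without read depth, the spread of 2 replicates limits every value, and shares of low genes most. Of the member gene sums, 1226 results under other settings kept their side of the threshold, 3 passed where the reported value did not, and 1 no longer passed. For isoform classes these were 1039, 2 and 0. They were 5031, 3 and 27 for the named transcripts, 3111, 0 and 12 for their shares, and 3293, 10 and 51 for the list genes. No called value changed sign, whereas values that were not called changed sign in 77 of 1230 gene sum results, 38 of 1041 class results, 238 of 5061 transcript results, 173 of 3123 share results and 159 of 3354 list gene results. In ASPC1 deltaNp63 against mock, 1 gene sum (ESRP2) was called with a mean of at least 5 TPM, and between 0 and 1 when each replicate was left out. In the same comparison 1 transcript was called with a pseudocount of 0.1 (CTNND1-204, adjusted p = 0.0122 by limma), and between 0 and 1 when each replicate was left out (CTNND1-223 without deltaNp63 replicate 1, adjusted p = 0.022). The same pseudocount gave 1 transcript in the difference between lines for deltaNp63 (CTNND1-204, adjusted p = 0.0495). With no filter on low values 1 transcript was called in PANC1 TAp63, in PANC1 deltaNp63 and in both differences between lines. It was FGFR2-217, at most 0.187 TPM in any library. Of 21 shares called between the mock groups, 12 were called on the arcsine scale, 13 with the replicate block, and 12 to 20 when each replicate was left out. The causes were not tested. Of 72 class shares, 28 moved by more than 1 SD with full-length coding transcripts only. The 72 include the CTNND1 shares, which could not move because all classified CTNND1 transcripts are full-length coding. For the other genes both of the 2 complementary classes are counted, and these move together. The fraction therefore understates how far the shares depend on the transcripts used.

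Whether the replicate numbers pair the samples could not be settled with 2 replicates a group. Deviations of same-numbered libraries correlated between -0.09 and 0.29 in ASPC1 and between -0.04 and 0.11 in PANC1. The replicate block lost 8 of the 21 share calls and left the count of called gene sums between the mock groups at 7 of 7.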
